A study of Mus musculus with 15 samples.

Results

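The 10 genes described here are the transcriptional negative-feedback genes of the ERK mitogen-activated protein kinase pathway: the MAP kinase phosphatases *Dusp4*, *Dusp5* and *Dusp6*, the Sprouty genes *Spry1*, *Spry2* and *Spry4*, the SPRED genes *Spred1* and *Spred2*, and the PEA3-type ETS factors *Etv4* and *Etv5*. They were taken by name, as families known for ERK feedback, with earlier results of these data known, and they are 10 of the 24134 gene IDs in the count tables. All 10 passed the filter on low counts in both the siRNA table and the drug table.

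Growth factor receptors activate RAS, RAF, MEK and finally ERK, which enters the nucleus and switches on genes that damp the same pathway. DUSP4 and DUSP5 dephosphorylate ERK in the nucleus and DUSP6 in the cytoplasm. Sprouty and SPRED proteins act upstream, between the receptor and RAF, with SPRED proteins recruiting the RAS GTPase-activating protein neurofibromin. ETV4 and ETV5 are transcription factors whose genes are themselves induced by FGF and ERK signaling, so that transcripts of all these families are widely used as readouts of ERK output. In cartilage, FGF receptor signaling through ERK restrains chondrocyte proliferation and differentiation in the growth plate.

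The cells were primary articular chondrocytes from the knee cartilage of ICR mouse pups, sequenced at passage 0 after culture in DMEM with fetal bovine serum. Control siRNA (siCtrl) or siRNAs against the tankyrase genes *Tnks* and *Tnks2* together (siTnks/2) were transfected in the siRNA set, for a time that the labels leave out. In the drug set, the cells received DMSO or 10 µM of either tankyrase inhibitor, XAV939 or IWR-1, for 108 h. Each of the 5 groups had 3 libraries, called biological replicates by the study, and the libraries held 26857070 to 36615194 counts. No genotype differed between groups, and the siCtrl and DMSO cells carried no tankyrase perturbation. The targeted genes checked the labels of the siRNA set: *Tnks* stood at 69.0, 58.4 and 70.1 TMM-normalized CPM (counts scaled to a common library total) in siCtrl and at 19.5, 12.7 and 24.0 CPM in siTnks/2. *Tnks2* stood at 118.5, 119.6 and 115.1 CPM in siCtrl and at 58.2, 44.9 and 61.2 CPM in siTnks/2. The inhibitors act on the proteins, so these transcripts check nothing in the drug set.

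Markers of the labelled cell type were abundant, since all 10 chondrocyte markers listed reached 1 CPM in every group. Their summed level was not constant, however. It ranged from 27400 to 36640 CPM in DMSO, from 38190 to 56090 CPM in XAV939 and from 90320 to 113700 CPM in IWR-1, with 3 of the 10 markers called higher with XAV939 and 9 with IWR-1. In the siRNA set it ranged from 86270 to 115300 CPM in siCtrl and from 123000 to 199900 CPM in siTnks/2, with 3 of the 10 markers called higher. The 6 fibroblast markers summed to 12040 to 15080 CPM in DMSO, to 6226 to 8120 CPM in XAV939 and to 5747 to 8645 CPM in IWR-1, and 4 of them were called lower with each inhibitor. Their sum ranged from 5289 to 9044 CPM in siCtrl and from 2781 to 7808 CPM in siTnks/2. The 6 leukocyte markers summed to 11.4 to 15.5 CPM in DMSO, to 11.9 to 15.3 CPM in XAV939 and to 6.66 to 9.22 CPM in IWR-1. The chondrocyte marker level moved with both inhibitors and after knockdown, the fibroblast level with both inhibitors and the leukocyte level with IWR-1. These are the same libraries as those of the feedback genes described next, and the part of the marker levels in those results was not tested. In bulk RNA, fewer cells of a type and less RNA per cell cannot be told apart.

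IWR-1 lowered most of the ERK feedback set. The libraries of IWR-1 held less *Dusp4*, *Dusp5*, *Dusp6*, *Spry1*, *Spry4*, *Spred2* and *Etv4* than DMSO, 7 of the 10 genes, and all 10 estimates lay below 0. *Dusp4* fell 6.19-fold, *Spry1* 4.86-fold, *Etv4* 2.87-fold and *Spry4* 2.85-fold. XAV939 lowered *Dusp4*, *Spry1* and *Spred2*, 3 of the 10 genes, by 2.99-fold, 3.003-fold and 1.95-fold. After knockdown of the tankyrase genes, 0 of the 10 genes passed the test in either direction, although 8 of 10 estimates lay below 0.

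A gene was called when its adjusted p-value, corrected over all genes of the table by the Benjamini-Hochberg method after edgeR's quasi-likelihood test, was under 0.05. Among all genes tested, 20.2% were called lower and 16.2% higher with IWR-1, 9.85% lower and 7.57% higher with XAV939, and 7.61% lower and 10.4% higher after knockdown. The median log2 fold change of the 10 genes was -1.21 with IWR-1, -0.43 with XAV939 and -0.16 after knockdown, against medians over all genes of 0.006, 0.016 and -0.001. XAV939 and IWR-1 were compared with the same DMSO libraries, so their values are given side by side and are not independent of each other. In the knockdown, 3 of the 10 genes reached an unadjusted p under 0.05 in edgeR (*Dusp5*, *Dusp6* and *Spred2*), and DESeq2 called 1 lower (*Spred2*). Among all 13672 genes, 4863 reached that unadjusted limit in edgeR and DESeq2 called 1467 lower. With the replicate number as a block, that is with each treated library compared with the control of its own number, the count of genes called lower became 2 after knockdown, 6 with XAV939 and 9 with IWR-1. The block also raised the calls among all genes. It called 2256 of 13672 lower after knockdown, 2410 of 13873 with XAV939 and 3514 of 13873 with IWR-1, against 1040, 1366 and 2799 without it.

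**Figure D1:**
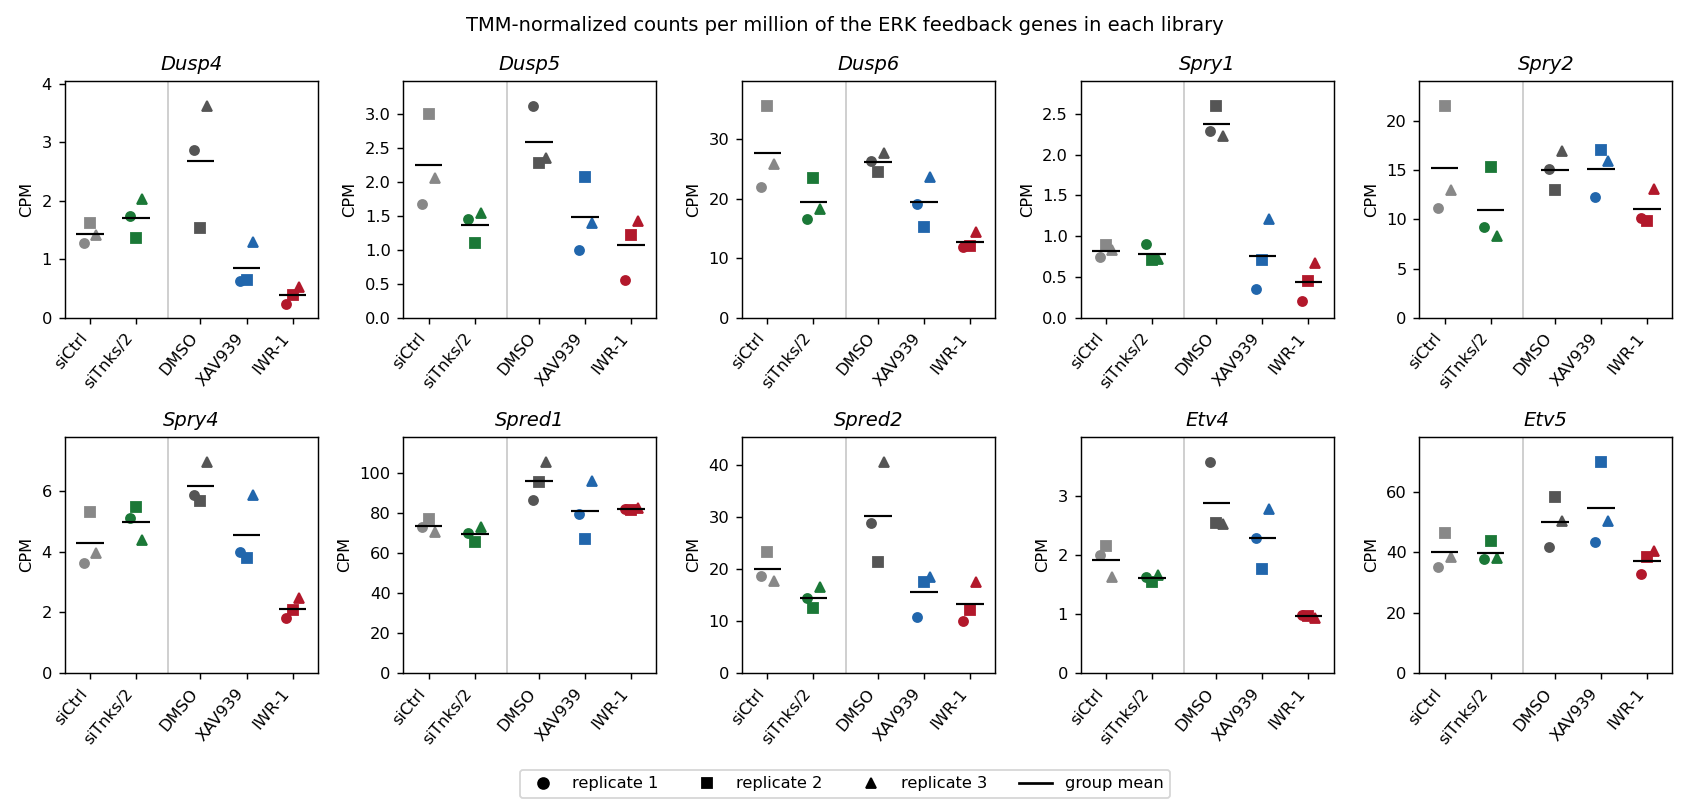
TMM-normalized CPM (vertical axis, linear, from 0) of the 10 ERK feedback genes in each of the 15 libraries, with 1 panel per gene, 1 symbol per replicate number and a line at each group mean (n = 3); the grey line parts the separately normalized siRNA and drug sets. For *Dusp4*, *Spry1*, *Spry4* and *Etv4* all 3 IWR-1 libraries lie well under all 3 DMSO libraries, whereas the siCtrl and siTnks/2 libraries overlap for each of these genes.

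**Figure D2:**
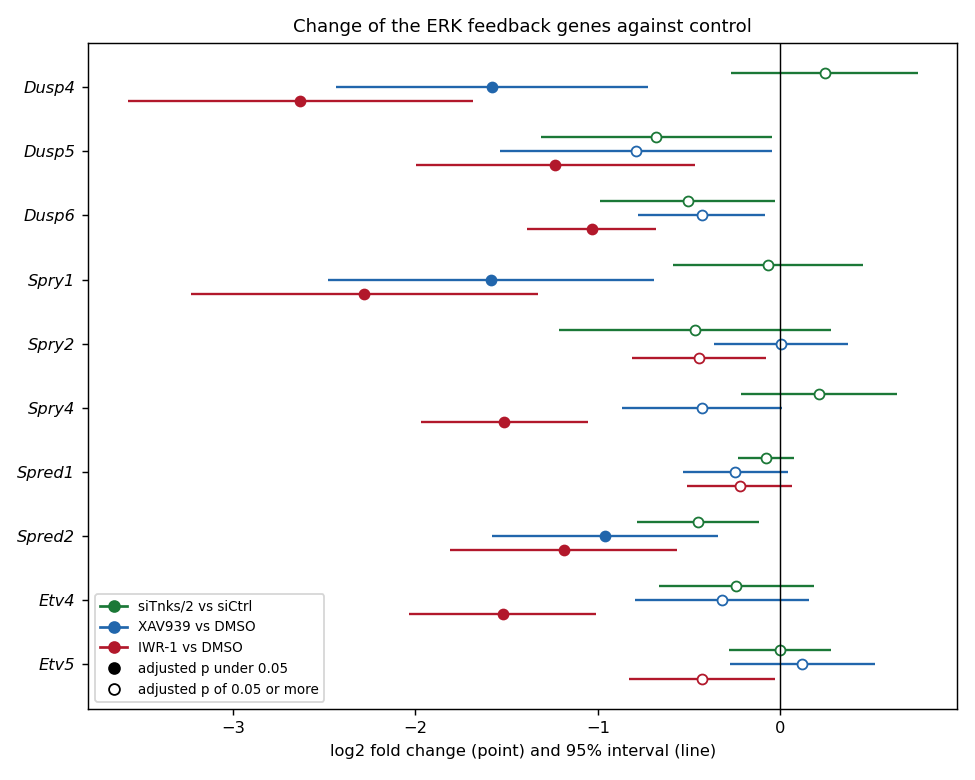
Log2 fold change (point) with its 95% interval (line) for each ERK feedback gene after knockdown (green), with XAV939 (blue) and with IWR-1 (red), each against its own control; filled points have an adjusted p-value under 0.05. The red points are filled for 7 genes and the blue for 3, and no green point is filled.

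The levels of these genes differed widely. Per kilobase of annotated exon, the DMSO means ran from *Spred1* (14.15 ± 1.39 CPM per kb, SD, n = 3) and *Etv5* (12.5 ± 2.09) through *Dusp6* (9.35 ± 0.593), *Spry2* (7.21 ± 0.943) and *Spred2* (6.80 ± 2.18) to *Spry4* (1.295 ± 0.145), *Etv4* (1.196 ± 0.251), *Dusp5* (1.04 ± 0.187), *Dusp4* (0.976 ± 0.383) and *Spry1* (0.815 ± 0.0665). The means of *Spred1* and *Etv5*, of *Spry2* and *Spred2*, and of each neighbour from *Spry4* down to *Spry1* lay within the larger of their SDs. *Dusp4* and *Spry1* therefore rested on few reads: *Dusp4* had 94, 53 and 115 counts in DMSO and 8, 12 and 18 in IWR-1, and *Spry1* had 75, 89 and 71 counts in DMSO and 7, 14 and 23 in IWR-1. Their fold changes had the widest intervals of the set with either inhibitor.

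Promoter sequences are shown for 4 of the genes, because ETS and AP-1 factors are the classical nuclear targets of ERK and 7 of the 10 genes fell with IWR-1. The windows are RefSeq sequences of the GRCm38.p6 assembly, from 250 bases before to 50 bases after the annotated start, written 5′ to 3′ on the gene's strand. Capitals mark CGGAAG on either strand, a form of the ETS site that is called the core here. Other forms of the ETS site were not searched. The windows comprise *Dusp6* (chr10:99262981-99263280) and *Spred2* (chr11:19924192-19924491), which both fell with IWR-1 and hold the core, *Spred1* (chr2:117120821-117121120), which holds it 2 times and was not called, and *Spry1* (chr3:37639697-37639996), which fell and does not hold it. All 4 lie on the plus strand.
Dusp6: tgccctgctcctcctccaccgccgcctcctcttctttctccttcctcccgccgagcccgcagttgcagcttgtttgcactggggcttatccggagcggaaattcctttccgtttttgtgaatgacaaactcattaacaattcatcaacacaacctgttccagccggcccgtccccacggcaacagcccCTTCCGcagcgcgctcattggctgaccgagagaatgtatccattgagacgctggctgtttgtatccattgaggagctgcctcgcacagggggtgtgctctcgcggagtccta
Spred2: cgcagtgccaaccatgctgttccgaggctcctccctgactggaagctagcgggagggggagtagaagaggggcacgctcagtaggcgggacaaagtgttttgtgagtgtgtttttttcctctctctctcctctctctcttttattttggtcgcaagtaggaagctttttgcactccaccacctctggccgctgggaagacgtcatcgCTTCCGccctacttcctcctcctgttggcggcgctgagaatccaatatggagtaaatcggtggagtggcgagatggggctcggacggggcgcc
Spred1: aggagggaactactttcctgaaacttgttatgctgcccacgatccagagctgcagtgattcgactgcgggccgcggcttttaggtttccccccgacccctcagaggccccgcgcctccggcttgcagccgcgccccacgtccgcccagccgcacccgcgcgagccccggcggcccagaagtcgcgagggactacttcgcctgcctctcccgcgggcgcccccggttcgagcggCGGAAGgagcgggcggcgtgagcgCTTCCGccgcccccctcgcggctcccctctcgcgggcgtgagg
Spry1: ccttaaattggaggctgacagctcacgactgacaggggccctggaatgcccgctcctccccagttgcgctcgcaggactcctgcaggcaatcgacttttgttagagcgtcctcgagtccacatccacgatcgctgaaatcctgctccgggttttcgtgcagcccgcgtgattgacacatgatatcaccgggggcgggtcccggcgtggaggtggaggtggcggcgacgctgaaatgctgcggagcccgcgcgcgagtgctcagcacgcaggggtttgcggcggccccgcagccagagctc
The core begins 62 bases before the annotated start of *Dusp6*, 43 bases before that of *Spred2*, and 17 bases before and 7 bases after that of *Spred1*. No window was found for *Dusp4* or *Etv4*, and *Spry4* was left out of the search, so nothing is said of its promoter. The other 7 of the 10 genes were searched. The core was present in 3 of these 7 and in 16.85% of all 32851 promoter windows searched. The AP-1 pattern TGANTCA and the cyclic AMP response element TGACGTCA were each in 0 of the 7, against 7.81% and 1.79% of all windows. None of the 3 patterns contains another, both strands were searched, and a match is only a match of letters.

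The 3 phosphatase genes all fell with IWR-1. *Dusp4* (Entrez 319520, chr8:34807610-34819894, GRCm38.p6), which encodes a nuclear phosphatase of ERK and also belongs to the genes that the study lists as raised in osteoarthritic cartilage, measured 2.87, 1.54 and 3.61 CPM in DMSO replicates 1 to 3. It measured 0.620, 0.638 and 1.296 CPM in XAV939 and 0.233, 0.385 and 0.522 CPM in IWR-1. All 6 inhibitor libraries lay under the lowest DMSO library, and the IWR-1 libraries lay under the XAV939 libraries. On the log2 scale the difference from DMSO was -2.63 with IWR-1 (SE 0.43, adjusted p = 0.000468) and -1.58 with XAV939 (SE 0.39, adjusted p = 0.0152). *Dusp4* did not follow in the knockdown, where siCtrl held 1.28, 1.63 and 1.41 CPM and siTnks/2 1.74, 1.36 and 2.02 CPM. These groups overlapped, and the change was 0.24 (SE 0.22, adjusted p = 0.444).

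*Dusp5* (Entrez 240672, chr19:53529145-53541809), which encodes the other nuclear ERK phosphatase, measured 3.11, 2.27 and 2.36 CPM in DMSO, 0.997, 2.06 and 1.39 CPM in XAV939, and 0.552, 1.22 and 1.42 CPM in IWR-1. Both inhibitor groups lay below DMSO without overlap, but their own spread was wide. IWR-1 changed it by -1.23 in log2 units (SE 0.35, adjusted p = 0.0141), a call that was lost without DMSO replicate 1 (log2 fold change -1.08, adjusted p = 0.0575). With XAV939 it was -0.79 (SE 0.34, adjusted p = 0.12), which passed with the replicate block (adjusted p = 0.0459). In the siRNA set *Dusp5* measured 1.68, 2.99 and 2.05 CPM in siCtrl and 1.46, 1.10 and 1.53 CPM in siTnks/2. The groups did not overlap, and yet the change of -0.68 (SE 0.27) had an adjusted p of 0.108.

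*Dusp6* (Entrez 67603, chr10:99263231-99267489), the cytoplasmic ERK phosphatase and the most abundant of the 3 phosphatase transcripts per kilobase, measured 26.4, 24.4 and 27.7 CPM in DMSO. It measured 19.1, 15.3 and 23.7 CPM in XAV939 and 11.8, 11.97 and 14.4 CPM in IWR-1. The 3 groups formed 3 steps without overlap. For IWR-1 the estimate was -1.03 in log2 units (SE 0.16, adjusted p = 0.000487), the narrowest interval among the 7 genes that fell. With XAV939 it was -0.43 (SE 0.16, adjusted p = 0.0817), and the replicate block brought it past the limit (-0.45, adjusted p = 0.00788). In the knockdown, siCtrl held 21.9, 35.5 and 25.8 CPM and siTnks/2 16.7, 23.5 and 18.3 CPM. Replicate 2 was the highest in both groups, siTnks/2 replicate 2 lay above siCtrl replicate 1, and in each of the 3 pairs the siTnks/2 library was the lower. The change of -0.51 (SE 0.20) had an adjusted p of 0.122 without the block and 0.00582 with it. The span of *Dusp6* overlaps that of the long non-coding RNA gene *Gm34921*, so reads may be shared or dropped there. The other 9 genes overlap no gene of that annotation.

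Among the Sprouty genes, which encode inhibitors acting between receptor tyrosine kinases and RAF, *Spry1* and *Spry4* fell with IWR-1 and *Spry2* changed less. *Spry1* (Entrez 24063, chr3:37639947-37644599) measured 2.29, 2.59 and 2.23 CPM in DMSO, 0.350, 0.713 and 1.204 CPM in XAV939, and 0.204, 0.449 and 0.667 CPM in IWR-1. The DMSO libraries lay close together and above all 6 inhibitor libraries. The fall amounted to -2.28 with IWR-1 (SE 0.43, adjusted p = 0.00123) and to -1.59 with XAV939 (SE 0.40, adjusted p = 0.0174) in log2 units. No such difference was seen in the siRNA set, with 0.747, 0.887 and 0.827 CPM in siCtrl and 0.902, 0.713 and 0.718 CPM in siTnks/2. There the change was -0.07 (SE 0.22, 95% interval -0.59 to 0.45, adjusted p = 0.853).

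*Spry4* (Entrez 24066, on chromosome 18) measured 5.86, 5.68 and 6.95 CPM in DMSO and 3.99, 3.79 and 5.86 CPM in XAV939. IWR-1 lowered it to 1.80, 2.09 and 2.46 CPM, below every library of the other groups. Its IWR-1 estimate was -1.51 in log2 units (SE 0.21, adjusted p = 0.000215), the smallest adjusted p of the 10 genes. With XAV939 it was -0.43 (SE 0.20, adjusted p = 0.155), and with the replicate block the adjusted p was 0.0245. In the siRNA set *Spry4* measured 3.64, 5.29 and 3.95 CPM in siCtrl and 5.10, 5.45 and 4.37 CPM in siTnks/2. These ranges overlapped, with a change of 0.21 (SE 0.18, adjusted p = 0.431).

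*Spry2* (Entrez 24064, chr14:105891947-105896819) measured 15.2, 13.04 and 17.0 CPM in DMSO, 12.3, 17.0 and 15.9 CPM in XAV939, and 10.1, 9.85 and 13.1 CPM in IWR-1. XAV939 and DMSO overlapped throughout, with a log2 difference of 0.002 (95% interval -0.36 to 0.37, adjusted p = 0.996), the sign of which depended on the processing. With IWR-1 the change was -0.45 (SE 0.17, adjusted p = 0.0577) and passed with the replicate block (adjusted p = 0.0142) and with DESeq2 (adjusted p = 0.0441). After knockdown *Spry2* stood at 11.1, 21.5 and 12.98 CPM in siCtrl and at 9.23, 15.3 and 8.32 CPM in siTnks/2. Replicate 2 was again the highest in both groups, and siTnks/2 was lower in each of the 3 pairs. The change of -0.47 (SE 0.32) had an adjusted p of 0.329 without the block and 0.018 with it.

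The SPRED genes diverged. *Spred2* (Entrez 114716, chr11:19924442-20024026) measured 28.9, 21.3 and 40.6 CPM in DMSO, 10.7, 17.5 and 18.4 CPM in XAV939, and 10.1, 12.1 and 17.5 CPM in IWR-1. Every inhibitor library lay under every DMSO library. Log2 fold changes were -1.19 for IWR-1 (SE 0.28, adjusted p = 0.00697) and -0.96 for XAV939 (SE 0.28, adjusted p = 0.0382). In the siRNA set it measured 18.7, 23.3 and 17.8 CPM in siCtrl and 14.4, 12.6 and 16.5 CPM in siTnks/2, again without overlap. The change of -0.45 (SE 0.14, adjusted p = 0.0657) missed the limit in edgeR, and DESeq2 called it (adjusted p = 0.0289). *Spred1* (Entrez 114715, chr2:117121071-117182279), the highest of the 10 genes per kilobase in DMSO, measured 86.8, 95.5 and 105.6 CPM in DMSO, 79.7, 67.0 and 95.9 CPM in XAV939, and 81.9, 81.8 and 82.7 CPM in IWR-1. It was not called in any comparison. The 95% intervals of its log2 fold change were -0.51 to 0.06 with IWR-1, -0.53 to 0.04 with XAV939 and -0.23 to 0.07 after knockdown, which leaves out a halving with IWR-1 but not a smaller fall. In the siRNA set *Spred1* ranged from 70.4 to 76.9 CPM in siCtrl and from 65.4 to 72.9 CPM in siTnks/2.

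The ETS factor genes also diverged. *Etv4* (Entrez 18612, chr11:101769747-101785310) measured 3.57, 2.53 and 2.51 CPM in DMSO, 2.29, 1.76 and 2.78 CPM in XAV939, and 0.988, 0.963 and 0.928 CPM in IWR-1. The IWR-1 libraries agreed closely and lay below all others, while XAV939 overlapped DMSO. IWR-1 changed it by -1.52 (SE 0.23, adjusted p = 0.000365) and XAV939 by -0.32 (SE 0.22, adjusted p = 0.32) in log2 units. In the siRNA set *Etv4* measured 1.99, 2.14 and 1.62 CPM in siCtrl and 1.63, 1.53 and 1.66 CPM in siTnks/2, a change of -0.24 (SE 0.18, adjusted p = 0.356). *Etv5* (Entrez 104156, chr16:22381313-22439570), much the more abundant of the pair, measured 41.7, 58.5 and 50.5 CPM in DMSO, 43.4, 69.9 and 50.4 CPM in XAV939, and 32.9, 38.6 and 40.3 CPM in IWR-1. Its IWR-1 libraries lay just under its DMSO libraries, with a change of -0.43 (SE 0.18, adjusted p = 0.0882) that passed with the replicate block (adjusted p = 0.00651). No change was called with XAV939 (log2 fold change 0.12, 95% interval -0.28 to 0.52, adjusted p = 0.687). After knockdown the 3 siTnks/2 libraries (37.7, 43.8 and 38.3 CPM) lay within the range of the siCtrl libraries (35.0, 46.5 and 38.4 CPM), with a change of -0.002 (95% interval -0.28 to 0.28, adjusted p = 0.993).

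The XAV939 calls were close to the limit, and single libraries decided them. The count of 3 genes called lower became 0 when DMSO replicate 1, XAV939 replicate 1 or XAV939 replicate 2 was left out, and 6 when XAV939 replicate 3, the highest XAV939 library for *Dusp4*, *Dusp6*, *Spry1* and *Spry4*, was left out. Calls lower among all genes were 845 of 13987, 941 of 13994, 1086 of 14064 and 1467 of 14038 in these fits, against 1366 of 13873 with every library. The calls of *Dusp4* and *Spry1* held in 6 of the 9 fits that left out 1 library of the drug set, and that of *Spred2* in 4. The estimates moved less than the calls: where the call was lost, *Dusp4* lay between -1.53 and -1.39 (adjusted p = 0.0534 to 0.0613), *Spry1* between -1.61 and -1.24 (adjusted p = 0.0506 to 0.0603) and *Spred2* between -1.05 and -0.70 (adjusted p = 0.0575 to 0.119). With IWR-1 the count stayed between 6 and 8. A stricter standard was that of the study for differentially expressed genes, a fold change above 3 with an adjusted p under 1e-05. The study applied it to DESeq2 results, and edgeR's quasi-likelihood test is a different test. It was met by 0 of the 10 genes in any comparison against control with edgeR, against 0.0% of all genes after knockdown, 0.00721% with XAV939 and 1.05% with IWR-1. With IWR-1, DESeq2 put 3 of the genes past it (*Dusp4*, *Spry1* and *Etv4*) and the edgeR fit with the replicate block 1 (*Dusp4*). The shares of all genes just given are those of edgeR without the block, and none is given here for these 2 fits.

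**Figure D3:**
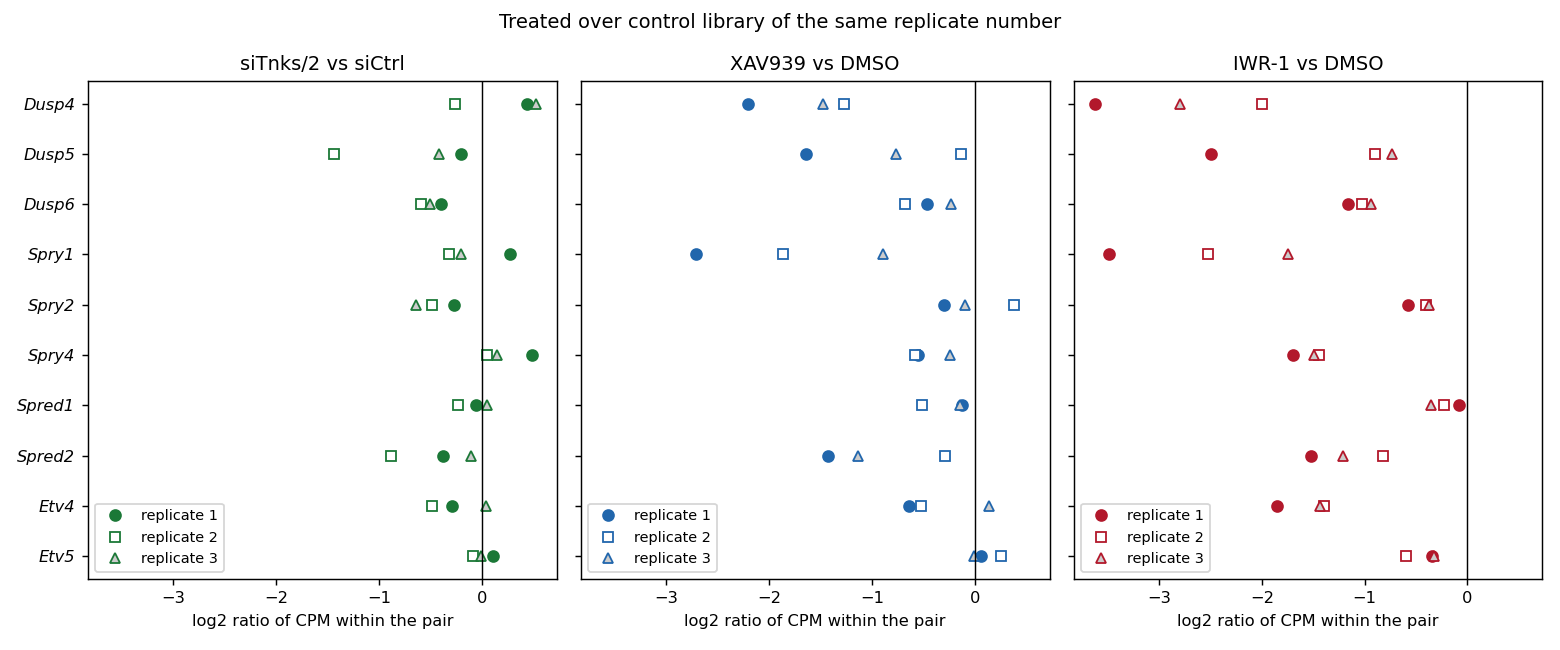
Log2 ratio of CPM between the treated and the control library of the same replicate number (horizontal axis) for each ERK feedback gene, with 1 panel per comparison and 1 symbol per pair. With IWR-1 all 3 pairs lie below 0 for each of the 10 genes, and after knockdown all 3 pairs lie below 0 for *Dusp5*, *Dusp6*, *Spry2* and *Spred2*.

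Compared directly at the same dose and time, IWR-1 left less *Dusp6*, *Spry4* and *Etv4* than XAV939 did. The log2 difference was -1.20 for *Etv4* (SE 0.23, adjusted p = 0.0046), -1.08 for *Spry4* (SE 0.21, adjusted p = 0.00492) and -0.60 for *Dusp6* (SE 0.16, adjusted p = 0.0241). These were 3 of the 10 genes, against 10.2% of all genes called lower and 7.37% called higher in this contrast, and 0 of the 10 were called higher. This was the 1 pair of compounds in the series. The call of *Dusp6* was lost without IWR-1 replicate 1 or 2, or XAV939 replicate 1 or 3 (adjusted p = 0.0992, 0.101, 0.0584 and 0.083), and those of *Spry4* and *Etv4* held in all 9 such fits. The replicate block added *Dusp4* (adjusted p = 0.0207), *Spry2* (adjusted p = 0.0233) and *Etv5* (adjusted p = 0.00304), and raised the calls lower among all 13873 genes from 1420 to 2296. For the remaining genes the 95% intervals of the difference were -1.24 to 0.35 for *Dusp5*, -1.74 to 0.36 for *Spry1*, -0.85 to 0.40 for *Spred2* and -0.27 to 0.31 for *Spred1*. *Spred1* was thus bounded within a small range, whereas for *Spry1* and *Dusp5* a difference of more than a doubling either could not be shown or set aside.

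Whether the inhibitors changed a gene differently from the knockdown was tested as an interaction in 1 model over all 15 libraries. The IWR-1 effect lay below the knockdown effect for *Dusp4* (log2 difference -2.88, SE 0.52, adjusted p = 0.000693), *Spry1* (-2.21, SE 0.55, adjusted p = 0.00582), *Spry4* (-1.74, SE 0.29, adjusted p = 0.000493) and *Etv4* (-1.29, SE 0.30, adjusted p = 0.00425). These 4 of 10 stand against 13.9% of all genes called lower and 10.5% called higher in this contrast. The block brought *Dusp6* (adjusted p = 0.00649), *Spred2* (adjusted p = 0.0355) and *Etv5* (adjusted p = 0.0238) past the limit as well, and raised the calls lower among all 14271 genes from 1989 to 2757. For *Spry2* the effects of IWR-1 and knockdown differed by little (0.01, 95% interval -0.76 to 0.79, adjusted p = 0.987), an interval too wide to call them equal. The XAV939 effect lay below the knockdown effect for *Dusp4* alone (-1.84, SE 0.49, adjusted p = 0.0198), against 8.07% of all genes called lower and 5.4% higher. That call was lost without siCtrl replicate 1 (-1.76, adjusted p = 0.0513) or XAV939 replicate 1 (-1.63, adjusted p = 0.0543). The block added *Spry1* (adjusted p = 0.0159) and *Spry4* (adjusted p = 0.0155), and raised the calls lower among all 14271 genes from 1152 to 2204. The siRNA and drug sets also differ in transfection and solvent, which cannot be told apart from the means of inhibition. The knockdown was partial, with *Tnks2* at 44.9 to 61.2 CPM in siTnks/2 against 115.1 to 119.6 CPM in siCtrl, and its duration is not stated. Control means in siCtrl and DMSO, scaled separately, were 1.44 and 2.67 CPM for *Dusp4*, 0.82 and 2.37 for *Spry1*, 4.29 and 6.16 for *Spry4*, and 1.92 and 2.87 for *Etv4*. The part of these differences in the interaction was not tested.

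**Figure D4:**
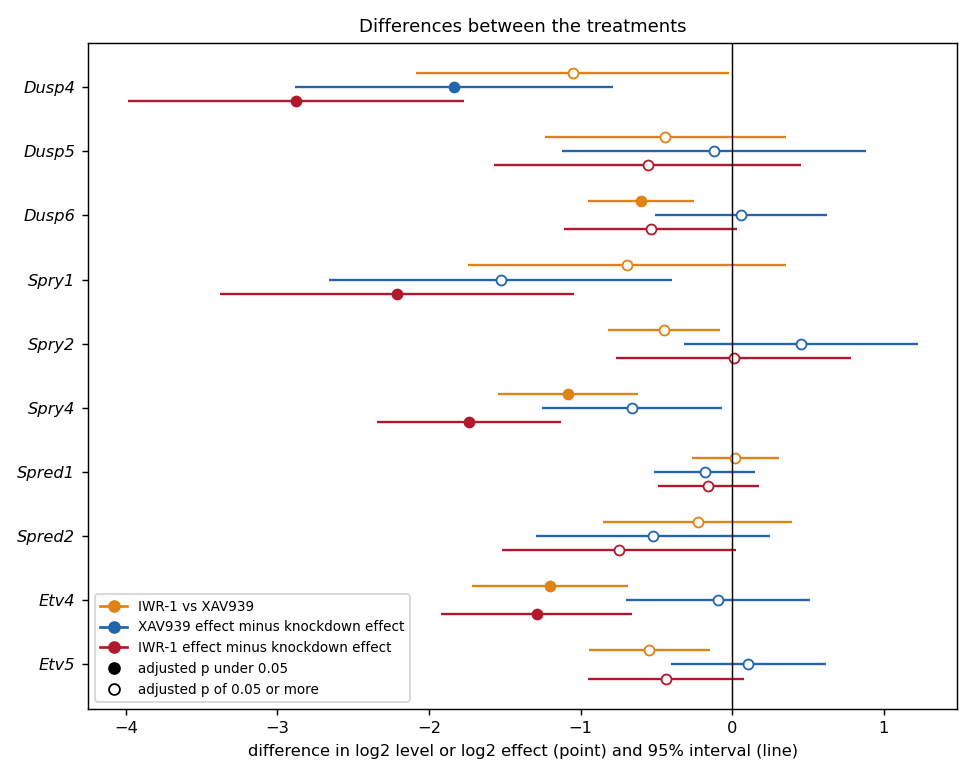
Difference (point) with its 95% interval (line) between IWR-1 and XAV939 in log2 level (orange), and between the log2 effect of XAV939 (blue) or IWR-1 (red) and that of the knockdown; filled points have an adjusted p-value under 0.05. *Spry4* and *Etv4* are filled both for IWR-1 against XAV939 and for IWR-1 against knockdown, and *Dusp4* is filled in both contrasts with the knockdown.

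Most of the other transcripts listed here as responding to ERK were called lower with each inhibitor. This list, like those below, was written with earlier results of these data known, so it is not an independent check of the feedback genes. Of 18 such genes, 13 were called lower and 1 higher with IWR-1, 10 lower and 0 higher with XAV939, and 7 lower and 0 higher after knockdown, with median log2 fold changes of -1.39, -0.55 and -0.53. Among all genes, 20.2% were called lower and 16.2% higher with IWR-1, 9.85% and 7.57% with XAV939, and 7.61% and 10.4% after knockdown. With the replicate block the list counts called lower were 15, 13 and 10. Those of all genes were then 3514 of 13873, 2410 of 13873 and 2256 of 13672. The knockdown count of the list fell to 2 without siTnks/2 replicate 1, while its IWR-1 count stayed at 13 in every fit that left out 1 library. The genes called lower in all 3 comparisons were *Fosl1*, *Egr1*, *Plaur* and *Lif*. Their calls with either inhibitor held in each of the 9 fits without 1 drug library, but those after knockdown held in 2 (*Fosl1*), 3 (*Egr1*), 5 (*Plaur*) and 3 (*Lif*) of the 6 fits without 1 siRNA library. *Fosl1*, which encodes the AP-1 subunit FRA-1, measured 142.5, 121.2 and 124.4 CPM in DMSO, 59.1, 49.7 and 71.4 CPM in XAV939, and 16.7, 18.6 and 25.5 CPM in IWR-1. The groups formed separate steps, and the log2 fold change was -2.67 with IWR-1 (adjusted p = 3e-06), -1.10 with XAV939 (adjusted p = 0.0018) and -0.90 after knockdown (adjusted p = 0.0361). *Lif*, a cytokine of the interleukin-6 family, changed by -3.68, -1.63 and -1.06 in the same order (adjusted p = 1.7e-05, 0.00421 and 0.026). *Egr1*, an immediate-early zinc finger factor, changed by -2.29, -1.17 and -0.60 (adjusted p = 1.9e-05, 0.00319 and 0.0304). *Plaur*, the urokinase receptor gene, changed by about the same amount each time, -1.09, -0.89 and -1.12 (adjusted p = 0.000363, 0.00357 and 0.0145).

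The interaction test set some of these transcripts apart between inhibitor and knockdown. *Hbegf*, an EGF receptor ligand gene, had the smallest adjusted p of this list with XAV939 (log2 fold change -1.82, adjusted p = 0.000152) and changed by 0.06 after knockdown (adjusted p = 0.81), a difference in effect of -1.89 (adjusted p = 0.000324). The receptor gene *Epha2* and the chromatin protein gene *Hmga2* had the smallest adjusted p after knockdown (-0.67 and -1.39, both with an adjusted p of 0.00773). *Epha2* changed by -0.15 with IWR-1 (adjusted p = 0.414), an effect 0.51 above that of the knockdown (adjusted p = 0.041), and by -0.40 with XAV939 (adjusted p = 0.0572, and 0.0291 with the block). *Hmga2* changed by -0.49 with IWR-1 (adjusted p = 0.196) and -0.44 with XAV939 (adjusted p = 0.29), both called lower with the block (adjusted p = 0.0101 and 0.0158). Its effects lay above that of the knockdown by 0.90 and 0.93 (adjusted p = 0.0929 and 0.109), which the block brought past the limit (adjusted p = 0.00707 and 0.0107). *Myc* was called in opposite directions, -0.74 after knockdown (adjusted p = 0.0329) and 0.58 with IWR-1 (adjusted p = 0.00707), the former holding in 2 of the 6 fits without 1 siRNA library, and the effects differed by 1.32 (adjusted p = 0.00086).

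Of 8 other MAP kinase phosphatase genes, 7 passed the filter. With IWR-1 5 were called lower and 1 higher, with XAV939 5 lower and 0 higher, and after knockdown 2 lower and 1 higher, with medians of -0.86, -1.01 and -0.17. The shares of all genes called lower were 20.2%, 9.85% and 7.61%, and those called higher 16.2%, 7.57% and 10.4%. *Dusp1*, the immediate-early phosphatase of p38, JNK and ERK, changed by -1.19, -1.42 and -0.57 (adjusted p = 0.00015, 0.000221 and 0.031). *Dusp10*, whose product acts mainly on p38 and JNK, changed by -1.61, -1.13 and -0.64 (adjusted p = 1.5e-05, 0.00048 and 0.0391). The knockdown call of *Dusp10* was lost in each of the 6 fits that left out 1 siRNA library, and that of *Dusp1* in all but 1. *Dusp14* went the other way, 0.57 with IWR-1 (adjusted p = 0.0107) and 0.47 after knockdown (adjusted p = 0.0494, held in 1 of 6 such fits).

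**Figure D5:**
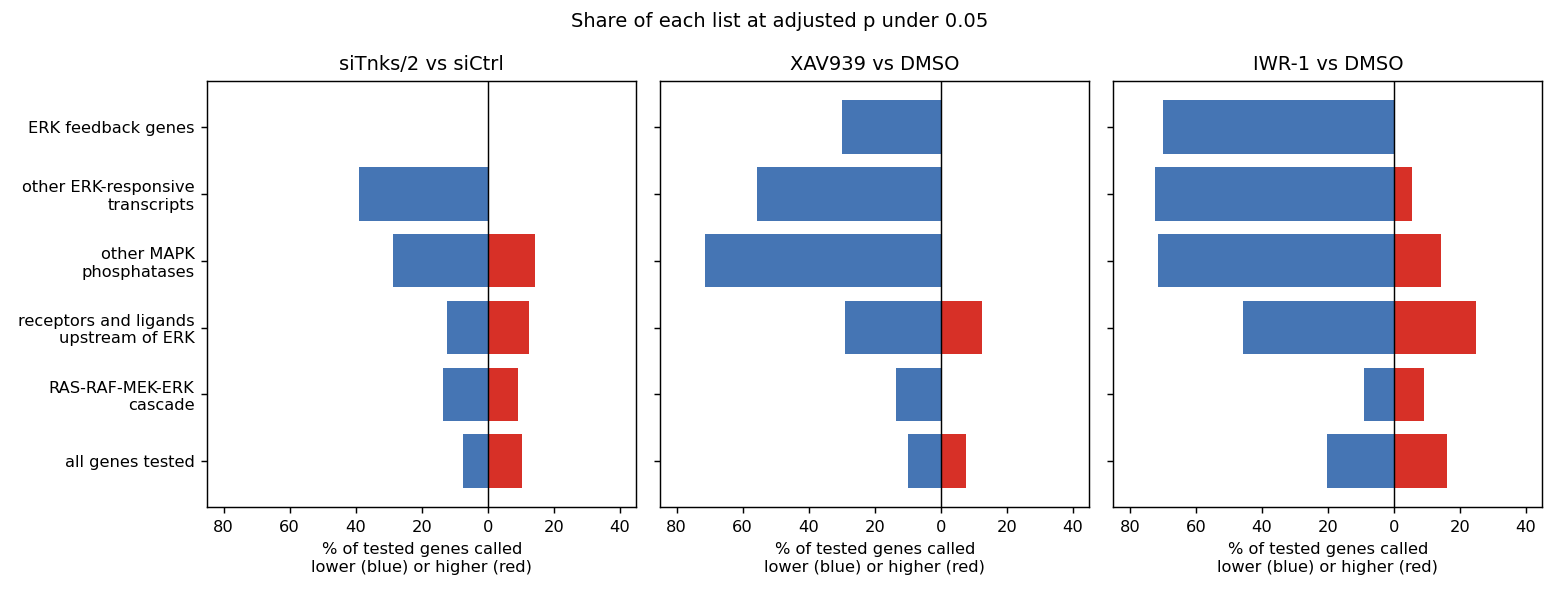
Percentage of the tested genes of each list called lower (blue, to the left) or higher (red, to the right) at an adjusted p-value under 0.05, with 1 panel per comparison against control and all genes tested as the bottom bar. The blue bars of the feedback genes, of the other ERK-responsive transcripts and of the other phosphatases reach past that of all genes with both inhibitors, while the bar of the cascade genes does not with IWR-1.

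The kinases and adaptors of the cascade itself gave counts near those of all genes, or below them with IWR-1. Of 22 genes from RAS to ERK, 2 were called lower and 2 higher with IWR-1, 3 lower and 0 higher with XAV939, and 3 lower and 2 higher after knockdown, with medians of -0.19, -0.17 and 0.00. Among all genes the shares called lower were 20.2%, 9.85% and 7.61%, and those called higher 16.2%, 7.57% and 10.4%. With the block the cascade counts called lower were 7, 7 and 4. Those of all genes were then 3514 of 13873 with IWR-1, 2410 of 13873 with XAV939 and 2256 of 13672 after knockdown. The XAV939 count of cascade genes ranged from 1 to 5, the latter without XAV939 replicate 3, and the IWR-1 count from 2 to 5, the latter without XAV939 replicate 2, when 1 library was left out. *Map2k1*, which encodes the ERK kinase MEK, had the smallest adjusted p among the genes lowered by either inhibitor, at -0.65 with IWR-1 (adjusted p = 0.000288) and -0.63 with XAV939 (adjusted p = 0.0013). Its change after knockdown was -0.32 (adjusted p = 0.0585, and 0.0411 with the replicate block). *Gab1*, an adaptor gene, was called higher with IWR-1 (0.47, adjusted p = 0.0182), and in 6 of the 9 fits without 1 drug library. The knockdown lowered *Hras* (-0.57, adjusted p = 0.00581), a call that held in all 6 fits without 1 siRNA library.

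Of 28 receptor and ligand genes upstream of ERK, 24 were tested. With IWR-1 11 were called lower and 6 higher, with XAV939 7 lower and 3 higher, and after knockdown 3 lower and 3 higher, with medians of -0.41, -0.29 and -0.18. The knockdown counts lie near the shares of all genes, 7.61% lower and 10.4% higher, while the shares of all genes were 20.2% and 16.2% with IWR-1 and 9.85% and 7.57% with XAV939. With the block, the knockdown counts of this list were 7 lower and 6 higher, against 2256 lower and 2471 higher among all 13672 genes. Without 1 library, the list's knockdown count called lower ranged from 1 (without siCtrl replicate 2 or 3 or siTnks/2 replicate 1) to 4. The count called higher ranged from 1 (without siCtrl replicate 1, 2 or 3) to 4. With XAV939 the count called lower ranged from 4 (without DMSO replicate 3 or XAV939 replicate 1) to 8. *Fgfr3* and *Fgfrl1* were called higher in all 3 comparisons, opposite in sign to the feedback genes that fell. *Fgfr3*, the receptor gene typical of cartilage, measured 28.4, 42.1 and 35.9 CPM in DMSO, 134.5, 214.8 and 123.7 CPM in XAV939, and 481.3, 503.0 and 439.4 CPM in IWR-1. It rose stepwise by 2.15 with XAV939 (adjusted p = 0.000152) and 3.74 with IWR-1 (adjusted p = 2e-06) on the log2 scale, and by 0.82 after knockdown (adjusted p = 0.00738). *Fgfrl1*, which encodes an FGF receptor without the tyrosine kinase domain, rose by 1.34, 1.88 and 0.69 (adjusted p = 0.0138, 0.000817 and 0.0385), the last of these held in 2 of the 6 fits without 1 siRNA library. The EGF receptor gene *Egfr* was called lower with XAV939 (-0.71, adjusted p = 0.0366, held in 4 of 9 fits without 1 drug library), with IWR-1 (-1.17, adjusted p = 0.00116) and after knockdown (-0.95, adjusted p = 0.00864). Among ligands, *Pdgfa* had the smallest adjusted p with IWR-1 (-1.17, adjusted p = 1.6e-05) and *Igf1* with XAV939 (-1.42, adjusted p = 0.00254).

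Across the 15 libraries, with each set centred on its own mean, the genes whose log2 CPM followed *Dusp6* most closely among 13342 genes were *Thsd1* (Pearson's r = 0.96), the third SPRED gene *Spred3* (r = 0.954) and *Socs3* (r = 0.948), which encodes a feedback inhibitor of cytokine signaling. The other 9 feedback genes had an r with *Dusp6* from 0.47 for *Etv5* to 0.832 for *Etv4*. *Etv5* was followed most closely by *Serpina3m* (r = 0.917), *Keap1* (r = 0.904) and *Rhbdf1* (r = 0.872), and its r with *Spred1* was -0.055. These values describe the libraries, which share treatment, depth and chondrocyte marker level. *Spred3* itself, which belongs to the other ERK-responsive transcripts, changed by -1.74 with IWR-1 (adjusted p = 1.2e-05), by -0.54 with XAV939 (adjusted p = 0.0233) and by -0.56 after knockdown (adjusted p = 0.116, and 0.0193 with the replicate block).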

How the data were processed

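Total RNA of 15 cultures of primary mouse articular chondrocytes was sequenced from TruSeq stranded mRNA libraries. Per the labels' processing notes, the authors used Trimmomatic 0.32, TopHat2 2.0.13 and HTSeq 0.6.1p1 on mm10, and the annotation and strand setting of the counting are not given in the sources used here. The deposited values are raw counts per Entrez gene ID, in a siRNA table (6 libraries) and a drug table (9 libraries). Of 24134 IDs, 24051 matched a RefSeq symbol (GRCm38.p6).

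Counts were fitted in R 4.3.3 with edgeR 4.0.16 (filterByExpr, TMM, quasi-likelihood test, prior count 2 for log2 fold changes), 1 model per table, and 1 model over both tables for differences between effects. The Benjamini-Hochberg correction ran over every gene tested (13672, 13873 and 14271). CPM values were scaled separately in each table. Standard errors are the unshrunk log2 fold change over the square root of F, and 95% intervals follow from them. Library totals of 26857070 to 36615194 counts set the precision, and intervals cover only the spread among these libraries.

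Replicate numbers come from the titles and column names, and what a number shares is not stated. After removal of group means, libraries of the same number correlated at 0.143 to 0.553 (9 drug pairs) and 0.424 to 0.519 (3 siRNA pairs), above the limit of 0.1, so fits with the number as a block are given where they change a call that is printed. Different numbers reached 0.318 and 0.0972.

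Alternatives were other scalings (RLE, upper quartile), other filters, DESeq2 1.42.0, the block, fits of only the groups compared and leaving out each library. The fits were tested on simulated data. The genes and lists were chosen with earlier results of these data known. Genes beyond the 10 are named where they were called in all 3 comparisons against control or had the smallest adjusted p of their list in a direction, with *Spred3* named for its likeness to *Dusp6*. A gene that this rule would name is not reported here.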

Additional observations from a re-analysis of the deposited data

Results flagged for a closer look

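For 4 of the 10 feedback genes the effect of an inhibitor differed from that of the knockdown by the interaction test. Among all genes, 13.9% were called lower and 10.5% higher for IWR-1 in this test, and 8.07% and 5.4% for XAV939. The pairs given next are of the same libraries as the test and add no independent evidence. For *Dusp4* the log2 difference was -2.878 for IWR-1 and -1.835 for XAV939, with all 3 pairs below 0 for each inhibitor and 1 of 3 below 0 after knockdown. For *Spry1* it was -2.213 for IWR-1, where again all 3 pairs were below 0, against 2 of 3 after knockdown. *Spry4* differed by -1.736 between IWR-1 and knockdown, and its 3 pairs lay below 0 with IWR-1 while 0 of 3 did after knockdown. *Etv4* differed by -1.289, with 3 of 3 pairs below 0 with IWR-1 and 2 of 3 after knockdown. The adjusted p-values were 0.000693 and 0.0198 for *Dusp4*, 0.00582 for *Spry1*, 0.000493 for *Spry4* and 0.00425 for *Etv4*. The knockdown was partial, and the sets differ in transfection, solvent and control level as well as in the means of inhibition. These cannot be told apart.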

How the results depend on the processing

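The direction of each called gene was kept under every alternative run that tested it. Among 1010 comparisons of a single gene's value with an alternative, 921 kept both direction and side of the limit, 32 passed it, 18 missed it and 39 changed sign. None of the values that changed sign was called in either fit. Of the 10 genes, DESeq2 called 1 lower after knockdown and the replicate block 2, against 0. Among all 13672 genes DESeq2 called 1467 lower, against 1040. For XAV939 against DMSO the counts of the 10 genes called lower were 1 with at least 10 counts in every library, 6 with the block and 0 to 6 without 1 library, against 3. The filter of at least 10 counts removed *Dusp4* and *Spry1*, with 8 and 7 counts in IWR-1 replicate 1. They were then not tested in the drug set or over both sets, so the smaller numbers there do not mean that their calls failed. Calls lower among all genes were 1242 of 12741 with that filter and 845 to 1467 without 1 library, against 1366 of 13873. For IWR-1 against XAV939 the block gave 6, against 3. For the XAV939 effect minus the knockdown effect the counts were 0 with at least 10 counts, 2 with DESeq2, 3 with the block and 0 to 3 without 1 library, against 1. Calls lower among all genes were then 1002 of 12432 with at least 10 counts, 1432 of 14271 with DESeq2 and 771 to 1220 without 1 library, against 1152. For the IWR-1 effect minus the knockdown effect the counts of the 10 genes were 2 with at least 10 counts and 7 with the block, against 4. With at least 10 counts, 1734 of all 12432 genes were called lower in that contrast, against 1989 of 14271. Sign changes were near 0 throughout. *Etv5* after knockdown became 0.003 with at least 10 counts, 0.004 with the block and up to 0.122 without 1 library (from -0.083 to 0.122). *Spry2* with XAV939 became -0.007 with RLE, -0.023 with no filter, -0.007 with DESeq2, -0.013 with only the groups compared, and from -0.092 to 0.131 without 1 library. *Etv5* with XAV939 ranged from -0.098 to 0.261 without 1 library. *Spred1* between IWR-1 and XAV939 became -0.000 with upper-quartile scaling and ranged from -0.095 to 0.166. In the XAV939 effect minus the knockdown effect, the ranges without 1 library were from -0.418 to 0.115 for *Dusp5*, from -0.152 to 0.222 for *Dusp6*, from -0.251 to 0.089 for *Etv4* and from -0.119 to 0.267 for *Etv5*. *Spry2* in the IWR-1 effect minus the knockdown effect became -0.001 with RLE and with DESeq2, and ranged from -0.316 to 0.322. Upper-quartile scaling moved the split of all genes with XAV939 from 1050 higher and 1366 lower to 1338 higher and 1174 lower. With the block, all genes called numbered 2471 higher and 2256 lower after knockdown, against 1419 and 1040, 2220 and 2410 with XAV939, and 1962 and 2296 between the inhibitors, against 1022 and 1420. The cause of these changes was not tested. The block changed no other call of the 10 genes than those given in the report. Depth limits *Dusp4* and *Spry1* most, with 7 to 23 counts in the IWR-1 libraries.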

Other observations

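The control libraries of the sets are given side by side, because the tables were scaled separately and differ in transfection and solvent. *Spry1* ranged from 2.23 to 2.59 CPM in DMSO and from 0.747 to 0.887 CPM in siCtrl, and *Lif* from 55.9 to 93.8 CPM in DMSO and from 6.47 to 11.6 CPM in siCtrl. *Fosl1* ranged from 121.2 to 142.5 CPM in DMSO and from 14.8 to 23.1 CPM in siCtrl. *Fgfr3* lay the other way, from 28.4 to 42.1 CPM in DMSO and from 489.5 to 629.2 CPM in siCtrl. *Dusp6* overlapped, from 24.4 to 27.7 CPM in DMSO and from 21.9 to 35.5 CPM in siCtrl. The difference between the control groups was not tested.

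The summed level of the 18 other ERK-responsive transcripts ranged from 1628 to 1832 CPM in DMSO, from 733.3 to 1001 CPM in XAV939, from 598.6 to 676.5 CPM in IWR-1, from 963.7 to 1077 CPM in siCtrl and from 515.4 to 737.8 CPM in siTnks/2. Osteoblast markers summed to 42.6 to 65.7 CPM in DMSO, 57.2 to 66.4 CPM in XAV939, 42.8 to 61.2 CPM in IWR-1, 59.5 to 71.1 CPM in siCtrl and 77.6 to 132.0 CPM in siTnks/2. The drug-set sums overlapped, but 2 of the 4 osteoblast markers tested were called higher with each inhibitor, *Sp7* (log2 fold change 2.47 with IWR-1, adjusted p = 3e-06, and 1.62 with XAV939, adjusted p = 0.000168) and *Bglap* (1.51, adjusted p = 0.00946, and 1.88, adjusted p = 0.00687), and their part in the results was not tested. Endothelial markers summed to at most 1.59 CPM in every library except 1 of siTnks/2, at 6.88 CPM. Skeletal muscle markers summed to 0.417 to 1.60 CPM in the drug set and to 3.31 to 7.54 CPM in the siRNA set, and red blood cell markers to at most 0.0357 CPM in any library.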
